A study of Mus musculus with 6 samples.

Results

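Structural microtubule-associated proteins bind along the microtubule lattice or at its ends, and 10 of their genes were examined here by symbol: Map2, Mapt and Map4 of the MAP2 and tau family, Map1a, Map1b and Map1s of the MAP1 family, Map7 and Map7d2 of the MAP7 family, Map6, and Camsap2, a minus-end binder. All 10 were found among the 55357 genes in the files, and all 10 passed the filter on low counts (at least 6 reads in at least 1 library), which kept 21876 genes. The 6 RNA-seq libraries came from primary neuronal cultures of wild type mice, prepared by the study from embryonic cortex and hippocampus of the C57BL/6N strain. In the control group (shCtrl, n = 3) a lentivirus expressed a scrambled shRNA, and in the knockdown group (shPla2g4e, n = 3) a lentivirus expressed 1 shRNA, called sh2, against Pla2g4e, which encodes a cytosolic phospholipase A2 enzyme. Virus was added on the fourth day in vitro and cells were collected on the fourteenth day, with as much control virus as knockdown virus. The study set the knockdown dose at the least virus that would halve the Pla2g4e transcript, as read by real-time PCR. Only 1 shRNA sequence was compared with 1 scrambled sequence. The labels call the cells neurons, and all 12 neuron markers listed had reads in all 6 libraries, but so did all 10 astrocyte markers. Nothing says whether the 3 cultures of a group were separate preparations, so p-values measure the spread between these libraries, which may be technical.

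Microtubules are polymers of tubulin that give neurites their shape and serve as tracks for transport. MAP2 is the classical marker of dendrites and the cell body, and tau, the product of Mapt, is enriched in axons. MAP1B is prominent in growing axons, and MAP1A in mature neurons. MAP6 makes microtubules resistant to cold, MAP7 proteins recruit kinesin-1, and CAMSAP2 holds the minus ends of microtubules that are not attached to a centrosome. The comparison addressed which of these genes changed in level when Pla2g4e was lowered during the days in which neurons of such cultures extend and branch their processes.

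The sh2 target is shown first, since short matches to it occur in some of the members. The first run is the target on the sense strand, as the study lists it, and the second is the guide strand, computed as its reverse complement, with the seed (bases 2 to 8) in capitals.
sh2 target: ggaagatggtggtggccaa
sh2 guide: tTGGCCACcaccatcttcc
An mRNA pairs with this seed through GTGGCCA, read on the strand of the mRNA only. In annotated 3′ UTRs (GENCODE vM21, transcripts of GRCm38), GTGGCCA was found in 4 of the 10 members, Map2, Mapt, Map1b and Map6. Over all genes tested with an annotated 3′ UTR, 2228 of 15705 (14.2%) held it in at least 1 transcript. Genes were not matched for 3′ UTR length. The longest annotated 3′ UTR of the 4 members had 2680 (Map6) to 4360 (Map1b) bases. Over all genes tested the median was 945 bases, read in the longest coding transcript. When only the longest coding transcript of each gene was read, 1 of the 10 members (Map1b) held it in the 3′ UTR. The share was 11.9% of the 15465 genes with a 3′ UTR in that transcript. Among the members, Map4 and Mapt have none there, and those of Map2 and Map6 have 181 and 135 bases, so this reading could find little. A 3′ UTR match of each of these members is printed with 11 bases on either side and the match in capitals.
Map2: tatatttctctGTGGCCAtttgtgatact
Mapt: cactgctagcaGTGGCCAagatcacttcc
Map1b: ctgatgtacccGTGGCCActcaaccaaat
Map6: gtgctgagcatGTGGCCAgtgtgtgtagc
The Map2 match lay at nucleotides 2656 to 2662 of transcript ENSMUST00000114015, and 6 of 8 coding transcripts with a 3′ UTR held one. The Mapt match lay at nucleotides 4858 to 4864 of ENSMUST00000106992, the 1 transcript of 3 that held one. The Map1b match lay at nucleotides 8600 to 8606 of ENSMUST00000064762, and 2 of 2 coding transcripts held one. The match in the other transcript has a different base after it and is not printed. The Map6 match lay at nucleotides 3166 to 3172 of ENSMUST00000127492, 1 of 7 transcripts. No match lay in an annotated 3′ UTR of Map4, Map1a, Map1s, Map7, Map7d2 or Camsap2. Matches in the coding sequence of the longest coding transcript, where 25.6% of genes hold one, were present in Mapt, Map1b and Camsap2, and a match of each is printed.
Mapt: ttaaagctcgtGTGGCCAgcaaagacagg
Map1b: aggagattgatGTGGCCAaggacatcaag
Camsap2: tggcctggctgGTGGCCAaagcctttggg
Beyond the seed, the longest stretch that any coding transcript of a member shared with the 19 bases of the target was 7 to 11 bases.

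Pla2g4e (ENSMUSG00000050211, chromosome 2, 119996893 to 120075816, minus strand, GRCm39) checks the labels. It had 38.0, 35.1 and 35.4 CPM (reads scaled to library size with TMM factors) under shCtrl and 21.8, 14.1 and 18.7 CPM under shPla2g4e, with replicates here and below in the order 1, 2, 3. The groups did not overlap, and 50.5% of the transcript was left, near the level the dose had been set to reach. Library totals were 17054717 to 23570180 reads, with 2.75% to 3.79% mitochondrial. No pair of libraries agreed within sampling noise. The test was edgeR's quasi-likelihood test, and a gene was called at a Benjamini-Hochberg adjusted p of 0.01 over all genes tested, which holds for every adjusted p below unless another fit is named.

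Of the 10 members, 2 were called, both lower in shPla2g4e cultures: Mapt and Map2. No member was called higher, and 8 were not called. Over all genes tested, 6.49% were called in either direction, 4.00% lower and 2.48% higher, or 609 lower and 796 higher genes in place of 876 and 543 when libraries were scaled by size alone. The log2 fold change was below 0 for 8 members and above 0 for 2, with a median of −0.23 beside 0.03 over all genes tested and −0.02 over 10908 well-expressed genes (mean log2 CPM 3 or more). With libraries scaled by size alone the median of the members was −0.15 beside 0.10 over all genes, and Map4 and Map1s lay at 0.07 and 0.06 instead of −0.01 and −0.02. The libraries of the groups did not overlap for 4 members (Mapt, Map2, Map6 and Map1a), all lower, beside 30.0% of all genes in either direction (14.6% lower and 15.5% higher). At an unadjusted p of 0.05, 6 members were lower and 1 higher, beside 12.9% and 12.8% of all genes. With the replicate number as a block, 5 members were called lower and 1 higher, beside 9.02% and 6.50% of all genes. The 5 were Mapt, Map2, Map6, Map1a and Map1b, and the 1 was Map7d2. All 10 members were among the 10908 well-expressed genes, of which 830 were called lower and 362 higher, 2600 lower and 1764 higher had groups that did not overlap, and 1826 lower and 1009 higher were called with the block. Bulk RNA does not tell fewer cells of a type from less RNA per cell.

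**Figure D1:**
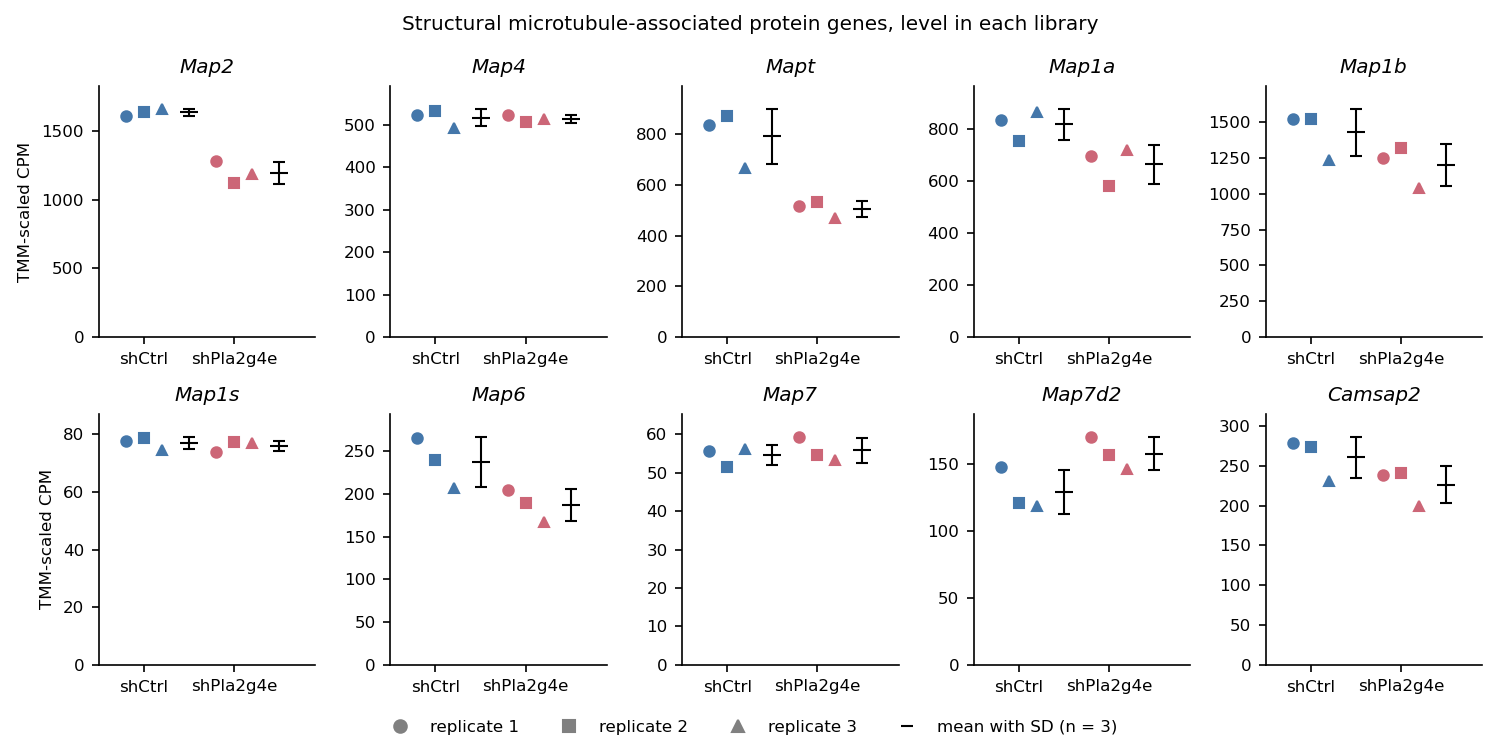
TMM-scaled CPM (y axis, from 0) of the 10 member genes in each of the 6 libraries, with the mean and SD of each group (n = 3) beside the points. The points of Mapt, Map2, Map6 and Map1a are lower in all 3 shPla2g4e libraries than in any shCtrl library, while those of Map4, Map1s and Map7 overlap between groups.

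Mapt (ENSMUSG00000018411, chromosome 11, 104122216 to 104222916) encodes tau. Its levels were 837.0, 869.8 and 667.9 CPM under shCtrl, and 515.7, 530.9 and 469.6 CPM under shPla2g4e. Replicate 3 was the lowest of each group, and every shPla2g4e library was below every shCtrl library. The means were 791.6 ± 108.3 and 505.4 ± 31.9 CPM (SD, n = 3), so that 63.8% was left. The log2 fold change of Mapt was −0.65 (standard error 0.098, 95% interval −0.86 to −0.44, adjusted p = 3.82e-04 in edgeR). It was called under all alternatives run, with −0.76 to −0.57 as single libraries were left out.

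Map2 (ENSMUSG00000015222, chromosome 1, 66214432 to 66481742) had 1612, 1639 and 1661 CPM under shCtrl and 1280.4, 1120.1 and 1187 CPM under shPla2g4e. The shCtrl libraries lay close together, and the groups were well apart. Its mean fell from 1638 ± 24.5 to 1196 ± 80.5 CPM (SD, n = 3), leaving 73.0%. Map2 thus had a log2 fold change of −0.45 (standard error 0.080, 95% interval −0.62 to −0.28, adjusted p = 0.00123 in edgeR). Without shCtrl replicate 2 the adjusted p was 0.0157 and the call was lost, at the same log2 fold change of −0.45.

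Map4 (ENSMUSG00000032479, chromosome 9, 109760528 to 109913023) encodes the member of this family that most tissues express, and its microtubule-binding repeats resemble those of MAP2 and tau. It had 523.6, 534.0 and 493.9 CPM under shCtrl and 524.2, 505.9 and 514.5 CPM under shPla2g4e. The 3 shPla2g4e values lay within the range of the shCtrl values. The log2 fold change was −0.01 with a 95% interval of −0.17 to 0.15 (adjusted p = 0.972), an interval that does not reach the estimates of Mapt and Map2.

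The MAP1 genes encode long proteins that are cut into heavy and light chains. Map1a (ENSMUSG00000027254, chromosome 2, 121120081 to 121141313) had 837.7, 754.4 and 868.9 CPM under shCtrl and 698.4, 580.7 and 721.1 CPM under shPla2g4e. Here replicate 2 was the lowest of each group, and the groups did not overlap. Map1a had a log2 fold change of −0.30 (standard error 0.093, 95% interval −0.50 to −0.10), which missed the threshold with an adjusted p of 0.0457 in edgeR. It was called with the replicate block (adjusted p = 4.25e-05), by DESeq2 (0.00976) and without a filter on low counts (0.00745). Of its exon bases, 2.24% overlap Ppip5k1 on the other strand, and the counting kept no strand.

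Map1b (ENSMUSG00000052727, chromosome 13, 99557954 to 99653048) had 1519.8, 1523 and 1236 CPM under shCtrl and 1247, 1319 and 1037 CPM under shPla2g4e. Replicate 3 was the lowest of each group, and shCtrl replicate 3 lay below shPla2g4e replicates 1 and 2, so the groups overlapped. Its estimate of −0.25 on the log2 scale (standard error 0.10, 95% interval −0.47 to −0.03) missed the threshold with an adjusted p of 0.139, and the replicate block gave 5.26e-04. Without shPla2g4e replicate 3 the estimate was −0.15. Between libraries of the same number Map1b differed by −0.29, −0.21 and −0.25 on the log2 scale, lower in 3 of 3. Map1s (ENSMUSG00000019261, chromosome 8, 71358576 to 71370173), the short member of the family, had 74.7 to 78.8 CPM under shCtrl and 74.0 to 77.3 CPM under shPla2g4e. Its ranges overlapped, and the log2 fold change was −0.02 (95% interval −0.18 to 0.14, adjusted p = 0.914).

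Map6 (ENSMUSG00000055407, chromosome 7, 98916654 to 98986344) had 265.3, 239.9 and 206.2 CPM under shCtrl and 204.2, 188.8 and 167.0 CPM under shPla2g4e. The highest shPla2g4e value was just under the lowest shCtrl value. Map6 had a log2 fold change of −0.34 (standard error 0.099, 95% interval −0.56 to −0.13, adjusted p = 0.0314 in edgeR), short of the threshold. It was called with the replicate block (adjusted p = 1.43e-05), by DESeq2 (0.00839), without a filter on low counts (0.00147) and without shCtrl replicate 3 (0.00654). Between libraries of the same number Map6 differed by −0.38, −0.35 and −0.30 on the log2 scale, lower in 3 of 3.

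Neither MAP7 gene had a log2 fold change below 0. Map7 (ENSMUSG00000019996, chromosome 10, 20024217 to 20157336) had 55.6, 51.5 and 56.3 CPM under shCtrl and 59.4, 54.7 and 53.2 CPM under shPla2g4e. These ranges overlapped, and the log2 fold change was 0.03 (95% interval −0.14 to 0.21, adjusted p = 0.860). Of the exon bases of Map7, 4.18% overlap Gm48249 on the other strand. Map7d2 (ENSMUSG00000041020, chromosome X, 158197568 to 158281753), a paralogue with high expression in brain, had 148.1, 120.7 and 118.5 CPM under shCtrl and 170.7, 156.6 and 146.2 CPM under shPla2g4e. Only shCtrl replicate 1 reached into the shPla2g4e range. The log2 fold change of Map7d2 was 0.29 (standard error 0.095, 95% interval 0.09 to 0.49, adjusted p = 0.0574 in edgeR), not called. It was higher in 3 of 3 libraries of the same number, by 0.21, 0.38 and 0.30 on the log2 scale, and called higher with the replicate block (adjusted p = 3.47e-04).

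Camsap2 (ENSMUSG00000041570, chromosome 1, 136195861 to 136273842) had 278.1, 273.2 and 231.0 CPM under shCtrl and 238.1, 240.9 and 199.8 CPM under shPla2g4e. Replicate 3 was again the lowest of each group, and the groups overlapped through it. Camsap2 had a log2 fold change of −0.20 (standard error 0.095, 95% interval −0.41 to −0.0028, adjusted p = 0.187 in edgeR). A fit with the replicate block gave 0.0102, just short of the threshold. The log2 fold change was −0.12 without shPla2g4e replicate 3 and −0.13 with libraries scaled by size alone.

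**Figure D2:**
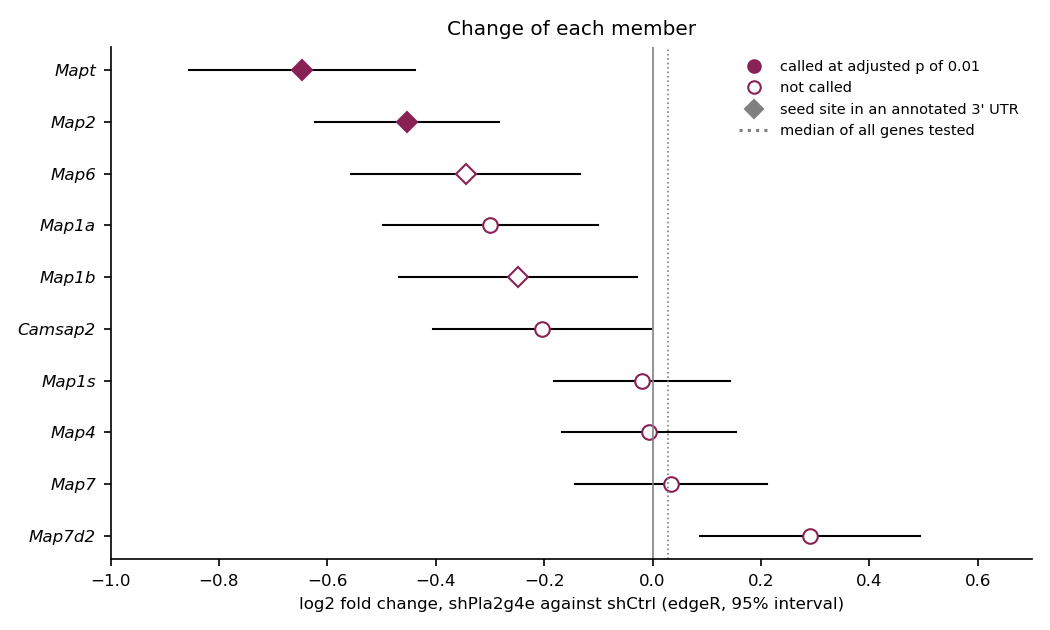
Log2 fold change of each member, shPla2g4e against shCtrl (x axis), as the edgeR estimate with its 95% interval. Filled symbols are genes called at an adjusted p of 0.01, diamonds are genes with a seed match in an annotated 3′ UTR, and the dotted line is the median of all genes tested (0.03). Mapt (−0.65) and Map2 (−0.45) are filled, the 4 diamonds lie between −0.65 and −0.25, and Map7d2 (0.29) is the highest.

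Side by side with the sequences, the 4 members with a seed match in an annotated 3′ UTR had log2 fold changes of −0.65 (Mapt), −0.45 (Map2), −0.34 (Map6) and −0.25 (Map1b). The 6 without one ran from −0.30 (Map1a) to 0.29 (Map7d2), with −0.20 for Camsap2, which has a coding match. Over all genes tested with an annotated 3′ UTR, the 2228 with a match had a median log2 fold change of −0.15 and 16.7% were called lower. The 13477 without one had a median of 0.02 and 3.59% were called lower. These 2 sets were not matched for 3′ UTR length or for level. The matches were chosen for this list with results known, 3 of the 4 lie in transcripts other than the longest coding one, the counts do not separate transcripts, and their part in the change of the members was not tested.

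Compared per length (CPM per kb of exon, with the exon lengths in the files), the members spanned more than an order of magnitude. These lengths join the exons of all annotated transcripts. For Map4 that is 15143 bases, with 4322 in its longest coding transcript, but for Map1a 12166 and 11825. Order, gaps, shares and sizes of ratios between genes thus depend in part on annotation. The change of 1 gene or 1 ratio between groups does not. In shCtrl cultures the order of mean levels began with Mapt (105.1 ± 14.4, SD, n = 3), Map2 (99.5 ± 1.49), Map1b (90.0 ± 10.4) and Map1a (67.4 ± 4.87). After a gap came Map4 (34.2 ± 1.37), Map7d2 (31.3 ± 3.99), Camsap2 (28.4 ± 2.82) and Map6 (25.9 ± 3.24), and at the end Map1s (9.68 ± 0.269) and Map7 (6.87 ± 0.323). The ranges of neighbours overlapped for Mapt and Map2 and among Map4, Map7d2, Camsap2 and Map6 in that order, so these neighbours are not told apart.

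In shPla2g4e cultures the order of levels per kb was Map1b (75.8 ± 9.23, SD, n = 3), Map2 (72.7 ± 4.89), Mapt (67.1 ± 4.24), Map1a (54.8 ± 6.19), Map7d2 (38.3 ± 2.98), Map4 (34.0 ± 0.602), Camsap2 (24.6 ± 2.50), Map6 (20.4 ± 2.04), Map1s (9.55 ± 0.230) and Map7 (7.03 ± 0.405). Mapt was first in the controls and below Map1b and Map2 here, but Map1b overlapped with Map2, and Map2 with Mapt, so that the order of these 3 does not hold beyond their spread. Map7d2 stood above Map4 with no overlap, where both had overlapped in the controls. The sum of the 10 genes was 6155, 6084 and 5615 CPM under shCtrl and 5012, 4775 and 4573 CPM under shPla2g4e. As a share of the members' summed level per kb, Mapt took 21.0% ± 1.80 in shCtrl and 16.6% ± 0.721 in shPla2g4e cultures (SD, n = 3). Map7d2 took 6.28% ± 0.586 and 9.47% ± 0.291, and Map1a took 13.6% ± 1.64 and 13.6% ± 1.79.

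Ratios of members within a library do not depend on the scaling between libraries, and 5 were compared with an exact two-sided permutation test, whose smallest p with 3 against 3 libraries is 0.1. The ratio of Map4 to Map2 per kb was 0.353, 0.354 and 0.323 in the shCtrl libraries and 0.445, 0.491 and 0.471 in the shPla2g4e libraries. It was higher in every shPla2g4e library, by 0.45 in mean log2 ratio (exact permutation p = 0.1, adjusted over the 5 ratios 0.167). Map7d2 stood to Map7 as 5.12, 4.51 and 4.06 in shCtrl and 5.54, 5.51 and 5.29 in shPla2g4e libraries, also without overlap (log2 difference 0.26, exact permutation p = 0.1, adjusted 0.167). The ratio of Map6 to Mapt was 0.261, 0.227 and 0.254, and then 0.326, 0.293 and 0.293 (log2 difference 0.30, exact permutation p = 0.1, adjusted 0.167). These 3 ratios were at the smallest p the design allows, so none could pass the correction.

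The ratio of Map2 to Mapt, the dendritic to the axonal marker gene, was 0.961 ± 0.154 in shCtrl and 1.09 ± 0.105 in shPla2g4e libraries (SD, n = 3), with overlapping ranges (log2 difference 0.18, exact permutation p = 0.3, adjusted 0.375). That difference was 0.31 without shCtrl replicate 3 and 0.11 without shCtrl replicate 2. Between libraries of the same number this ratio was higher under shPla2g4e in 3 of 3 (paired exact permutation p = 0.25, the smallest possible). The ratio of Map1a to Map1b, of which the first gene rises and the second declines as the brain matures, was 0.760 ± 0.140 and 0.736 ± 0.166 (SD, n = 3). Its log2 difference was −0.05 (exact permutation p = 0.9), and 0.09 without shCtrl replicate 3 and 0.11 without shPla2g4e replicate 2, so that its sign rests on single libraries. Within numbers, replicate 3 had the highest ratio of Map1a to Map1b of both groups (0.916 and 0.905) and replicate 2 the lowest (0.645 and 0.573).

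**Figure D3:**
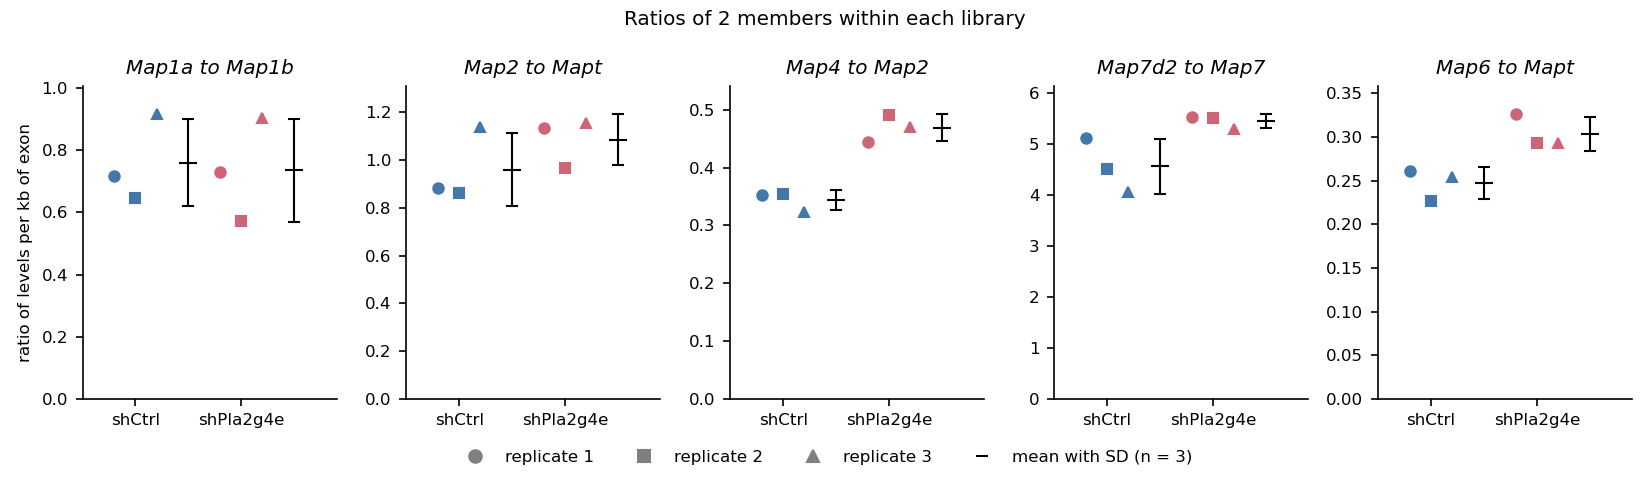
Ratio of 2 members' levels per kb of exon within each library (y axes, from 0), for 5 pairs of genes, with the mean and SD of each group (n = 3) beside the points. The ratios of Map4 to Map2, Map7d2 to Map7 and Map6 to Mapt do not overlap between groups, while those of Map1a to Map1b and Map2 to Mapt do.

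Genes whose level ran most like that of Mapt over the 6 libraries, by Pearson's r of log2 CPM among 10907 other well-expressed genes, were Srgap1 (r = 0.9998), Pcdhga11 (0.998) and Tmem108 (0.997). These r are a description over 6 libraries that share their group difference and numbering, and 491 genes had an r above 0.95. Srgap1, a GTPase-activating protein of the Slit-Robo pathway, went from 85.7 ± 9.45 to 60.2 ± 2.92 CPM (SD, n = 3). Pcdhga11, a gamma protocadherin, went from 13.0 ± 2.38 to 6.67 ± 0.535 CPM, though the genes of that cluster share exons, which makes its reads uncertain. Tmem108, a transmembrane protein, went from 52.5 ± 6.61 to 37.2 ± 2.27 CPM. Among the members themselves, Map6 was most like Mapt (r = 0.918), and Map1b and Camsap2 ran together most closely (r = 0.994).

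Other regulators of microtubules were read from 6 lists by role, 92 genes in all, of which 91 were tested. Of these, 10 were called lower and 0 higher, beside the 4.00% and 2.48% of all genes given above, and at an unadjusted p of 0.05 there were 33 lower and 4 higher, beside 12.9% and 12.8% of all genes. Their median log2 fold change was −0.15, and 66 were below 0 and 25 above. With the replicate block, 27 were called lower and 3 higher, beside 9.02% and 6.50% of all genes. By list, the block called lower 4 relatives of the members or other lattice or minus-end binders, 8 plus-end proteins and 7 kinases and phosphatases. It also called lower 5 nucleation genes, 2 tubulin-modifying enzymes and 1 severing enzyme. Of the 91, 42 had groups that did not overlap, 38 of them lower and 4 higher, beside 14.6% and 15.5% of all genes. The regulators were not matched to all genes by level. Of the 10908 well-expressed genes, 830 were called lower and 362 higher, and with the block 1826 lower and 1009 higher. Among these genes, 2600 lower and 1764 higher had groups that did not overlap. The calls by list below stand beside the same shares and were not tested against them.

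Among relatives of the members and other lattice or minus-end binders (11 tested), 2 were called lower. Tppp, which promotes tubulin polymerization and bundling, had 281.4, 258.7 and 224.5 CPM under shCtrl and 126.2, 114.9 and 114.7 CPM under shPla2g4e. The groups lay far apart, at a log2 fold change of −1.10 (standard error 0.091), a larger fall than in any member. Camsap1, a paralogue of Camsap2, went from 169.5 ± 12.9 to 128.7 ± 9.69 CPM (SD, n = 3; at −0.40 on the log2 scale with an adjusted p of 0.00573), and its call was lost in 6 of 17 alternatives. The other 9 were not called, with Camsap3 at −0.31 and Map7d1 at −0.02, and Map7d3 was not tested. The replicate block called Camsap3 lower (adjusted p = 0.00146).

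Proteins of the growing plus end gave 2 lower calls of 21. Nav3, a neuron navigator, went from 260.3 ± 24.0 to 184.3 ± 15.0 CPM (SD, n = 3; log2 fold change −0.50), and lost its call without shCtrl replicate 2. Mapre2, an EB-family protein that tracks plus ends, went from 492.8 ± 51.2 to 367.2 ± 13.6 CPM (at −0.42 on the log2 scale with an adjusted p of 0.00399), and its call was lost when any library but shCtrl replicate 3 was left out. The other EB genes were not called, with log2 fold changes of −0.22 for Mapre3 and −0.03 for Mapre1, but Mapre3 was called lower with the replicate block (adjusted p = 0.00697).

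Kinases and phosphatases that act on microtubule-associated proteins had 4 lower calls of 16 (Ppp2r2c, Mapk8, Brsk2 and Mark2). Ppp2r2c, a regulatory subunit of protein phosphatase 2A, which dephosphorylates tau, had 477.2, 434.9 and 409.4 CPM under shCtrl and 237.0, 231.7 and 225.6 CPM under shPla2g4e. Its groups were far apart, at a log2 fold change of −0.93 (standard error 0.081). Mapk8, which encodes JNK1, a kinase of MAP1B and MAP2, went from 204.7 ± 5.83 to 148.6 ± 14.9 CPM (SD, n = 3; log2 fold change −0.46), and its call was lost without shCtrl replicate 2. The tau kinase genes Gsk3b, Gsk3a and Cdk5 had log2 fold changes of −0.36, −0.30 and −0.18 and were not called. Of these, Gsk3b (adjusted p = 1.03e-05) and Gsk3a (3.62e-04) were called lower with the replicate block.

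Enzymes of tubulin modification gave 1 lower call of 17. Vash1, a carboxypeptidase that removes the last tyrosine of alpha-tubulin, went from 78.8 ± 7.80 to 41.7 ± 0.521 CPM (SD, n = 3; log2 fold change −0.92). Its paralogue Vash2 (−0.23), its partner Svbp (−0.17) and the tubulin tyrosine ligase Ttl (−0.01) were not called. Nucleation and augmin genes gave 1 lower call of 18, Tubg2, a gamma-tubulin, which went from 45.1 ± 2.96 to 24.4 ± 1.84 CPM (log2 fold change −0.89), while Tubg1, the other gamma-tubulin gene, was at −0.41 and not called, though it was with the replicate block (adjusted p = 5.34e-04). None of the 8 severing enzymes was called, with Spast at −0.04. List medians ran from −0.19 (relatives of the members and other lattice or minus-end binders) to −0.04 (tubulin modification).

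**Figure D4:**
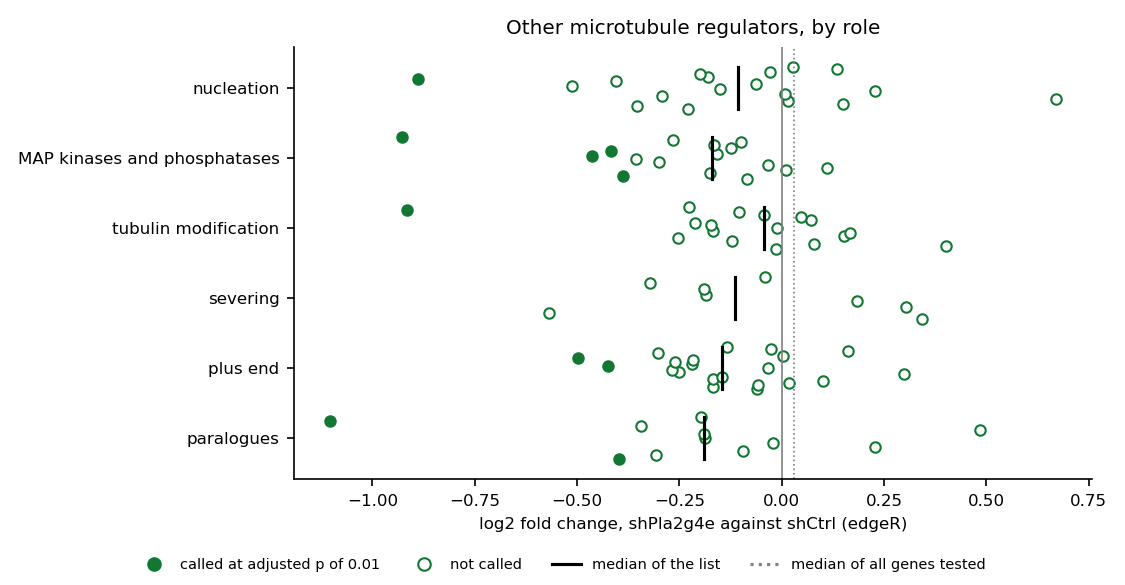
Log2 fold change (x axis, edgeR) of the 91 other microtubule regulators tested, 1 point per gene, in 6 lists by role. Filled points are the 10 genes called at an adjusted p of 0.01, bars are list medians and the dotted line is the median of all genes tested. All filled points lie below 0, and none is a severing enzyme.

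Markers of cell types were read beside these results. The summed level of the 12 neuron markers was 5148 to 5886 CPM in shCtrl and 5332 to 5686 CPM in shPla2g4e libraries, with 1 marker called lower (Rbfox3) and 2 higher (Nefl and Nefm). The summed level of the 10 astrocyte markers was 2978, 3354 and 3805 CPM in shCtrl and 2208, 2051 and 3244 CPM in shPla2g4e libraries, with 3 called lower (Aqp4, Slc1a2 and Gja1). It was highest in replicate 3 of each group, the libraries in which Mapt, Map1b, Map6, Camsap2 and Map7d2 were lowest in their group. Map1a, by contrast, was highest there in both groups, and Map2 and Map7 in shCtrl. With both of these libraries left out, 3 members were called lower (Mapt, Map2 and Map6) and 0 higher, beside 5.59% and 3.04% of all genes in that fit. Microglia markers (10) summed to 18.6 to 30.4 and 31.7 to 36.1 CPM, with 1 or 2 at 0 in a library. Cd68, the 1 called, rose from 18.03 ± 4.51 to 28.7 ± 3.45 CPM (SD, n = 3) and made up most of the sum, whereas 6 of the 8 microglia markers tested were below 0 and their median log2 fold change was −0.68. Markers of the oligodendrocyte lineage (10) summed to 572.0 to 647.9 and 587.8 to 723.6 CPM, and endothelial and mural markers (8, with 1 or 2 at 0) to 21.6 to 28.3 and 21.9 to 31.1 CPM, with 0 called. Proliferation genes (6) summed to 28.6 to 49.5 and 16.3 to 27.5 CPM, with 1 called lower (Top2a). With the replicate block, 7 astrocyte markers were called lower and 1 higher, 2 neuron markers lower and 3 higher, 2 proliferation genes lower and 0 higher, 1 oligodendrocyte marker lower, 1 microglia marker higher and 1 endothelial or mural marker higher. The part of these markers in the change of the members was not tested.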

How the data were processed

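Poly(A) RNA of 6 cultures was sequenced from stranded libraries. Alignment by the authors used STAR (2.7.0d, with FastQC 0.11.8 and featureCounts 1.6.0, per the labels' processing notes), and they deposited raw counts per gene, 1 table a library, without normalization. The labels and the tables give GRCm39 and the tables GENCODE vM28, whereas the methods name mm10. Counting was run without strand or read-pair options, so reads of the other strand may count for a gene. Multi-mapping reads were left out.

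Symbols came from GENCODE vM21 by gene ID (52081 of 55357 matched, and the other 3276 took 0.286% to 0.387% of reads). The counts were analysed with edgeR 4.0.16 in R 4.3.3 (TMM, glmQLFit and glmQLFTest, a minimum of 6 reads in 1 library or more, adjusted p of 0.01). The study used limma after voom, run here as an alternative (limma 3.58.1) with DESeq2 1.42.0, which gave no adjusted p for 5514 genes. Other scalings, filters, the robust fit, an adjusted p of 0.05, the replicate block and the omission of single libraries were also tried. At 17054717 to 23570180 reads a library, Map7, the least abundant member, had at least 931 reads, and for it and Map1s counting error is a large part of the spread between libraries.

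The members and lists were chosen with earlier results of these data known. Genes named are the 10 members, Pla2g4e, the 2 called genes of smallest p in each list, and the 3 genes most like Mapt, the called member of smallest p. Brsk2, Mark2, the markers, and relatives or partners of these genes (Camsap3, Map7d1, Map7d3, Mapre1, Mapre3, Gsk3a, Gsk3b, Cdk5, Vash2, Svbp, Ttl, Tubg1, Spast) were named after their values were seen. Over 10908 genes, a library departed from its group mean in the same way as the library of its number (correlations 0.392, 0.189 and 0.461) more than as others (−0.393 to 0.108). The main edgeR fit and the permutation tests of ratios in the Results did not use this pairing. The numbers in the labels were treated as pairs in the replicate block and in the differences between libraries of the same number. Some items are not reported here.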

Additional observations from a re-analysis of the deposited data

How the results depend on the processing

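Mapt kept its direction and call under all 17 alternatives, Map2 under all but 1 (without shCtrl replicate 2), and no called gene that the naming rule picked changed direction. Members called lower numbered 2, with 4 by DESeq2, 4 without a filter, 4 at an adjusted p of 0.05, 5 with the replicate block and 1 to 3 when each library was left out. Members called higher numbered 0, with 1 under the replicate block and 0 when each library was left out. Other regulators called lower numbered 10, with 27 under the replicate block, 20 at 0.05 and 4 (without shCtrl replicate 2) to 10 when each library was left out. Other regulators called higher numbered 0, with 1 by library size alone, 1 without a filter, 3 under the replicate block, 2 at 0.05 and 0 when each library was left out, and 1 when both number 3 libraries were left out, an alternative chosen after seeing the data. Genes called lower numbered 876, with 1214 by DESeq2, 1360 without a filter, 1973 under the replicate block, 1599 at 0.05 and 449 to 932 when each library was left out. Genes called higher numbered 543, with 687, 989, 1422, 1214 and 246 to 681 in the same order. The lowest of both ranges came without shCtrl replicate 2. The median log2 fold change of the members, −0.23, was −0.14 without shPla2g4e replicate 3. The mean log2 ratio of Map1a to Map1b differed by −0.05, with 0.09 without shCtrl replicate 3, 0.11 without shPla2g4e replicate 2 and −0.22 to 0.11 over all left out in turn. The 4 other ratios kept their direction. Paired by number, the smallest exact permutation p is 0.25. The causes were not tested.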
